A study of Mus musculus with 8 samples.

Results

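The enzymes described here build the precursors of DNA and RNA. They are 9 genes, chosen by name from a list of deoxynucleotide, pyrimidine and purine synthesis genes, of 20172 genes in the table, and all 9 had a row and passed the minimum mean of 10 normalized counts. They were compared between TNFR2+ and TNFR2- regulatory T cells (Tregs), sorted by flow cytometry from mouse spleens. The mice were female by the series design, whereas the study's methods name both sexes, and young adults by those methods. Their genotype was Foxp3 YFP-cre. Both groups carry this allele, in which the Foxp3 locus drives YFP and Cre, so that YFP marks cells expressing Foxp3, the lineage factor of Tregs; the gates were YFP with or without surface TNFR2, the second TNF receptor. The labels name no treatment, and each group held 4 libraries. The study sets its replicate number beside the mice, but the sources used here do not say whether each library was a separate mouse or a pool, so p-values measure only the spread between these libraries.

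Ribonucleotide reductase, a complex of a large subunit (Rrm1) and a small subunit (Rrm2), removes an oxygen from ribonucleoside diphosphates and supplies all deoxynucleotides made de novo. Dut hydrolyses dUTP to dUMP, which keeps uracil out of DNA and provides the substrate that Tyms methylates to thymidylate, while Tk1 and Dck salvage deoxynucleosides. Cad carries out the first steps of pyrimidine synthesis, Paics acts midway along purine synthesis, and Impdh2 commits IMP to guanine nucleotides. Dividing lymphocytes draw on all of these routes, and transcripts such as Rrm2 and Tk1 are known to rise around S phase, whereas purine and pyrimidine synthesis also serve RNA.

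The data showed 3 enzymes higher in TNFR2+ Tregs. These were Rrm1 (2.05-fold), Rrm2 (3.21-fold) and Dut (3.42-fold), and in each the 4 TNFR2+ libraries lay above the 4 TNFR2- libraries. The other 6 (Tyms, Tk1, Dck, Cad, Impdh2, Paics) did not pass the test. By limma, with Benjamini-Hochberg adjustment over 13990 genes and a threshold of 0.05, 3 of 9 members were higher and 0 were lower, and with an unadjusted p under 0.05 the lower count was also 0. Of all genes tested 4.52% were higher, 3.39% were lower and 8.08% were higher with no overlap between groups. The log2 fold change was positive in 8 of 9 members, with a median of 0.595, against a median of -0.01 over all genes tested. All log2 fold changes are TNFR2+ over TNFR2- on the log2(normalized count + 1) scale.

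The libraries held an estimated 9088000 to 12120000 reads in genes. Tnfrsf1b, which encodes TNFR2, had 2501 ± 544 normalized counts in TNFR2+ and 1321 ± 168 in TNFR2- libraries (SD, n = 4; log2 fold change 0.90, adjusted p = 0.00449 by limma), in the direction of the gate. Foxp3, whose locus drives the gated reporter, was at 2812 to 3313 in TNFR2+ and 3292 to 4033 normalized counts in TNFR2- libraries. All 6 Treg markers were detected in every library. Il2ra was lower in TNFR2+ libraries without overlap (2561 to 3070 against 3219 to 3990). Higher without overlap were Ctla4 (3968 to 5030 against 1985 to 2829) and Ikzf2 (8119 to 11560 against 3180 to 7270). Cd3e was also higher (3613 to 3998 against 2381 to 2850), and Cd4 overlapped (3967 to 4505 against 3009 to 4240). By flow cytometry in another Foxp3 reporter strain, the study found the proteins of Foxp3, Il2ra (CD25), Ctla4 and Ikzf2 (Helios) higher in TNFR2+ Tregs. For Il2ra, transcript and protein thus differed in direction. The summed level of the B cell markers (8 of 10 analysed) ranged from 411 to 486 normalized counts in TNFR2+ and from 170 to 436 in TNFR2- libraries. Of these sums, Cd22 gave 273 to 350.3 in TNFR2+ and 54.7 to 223 in TNFR2- libraries. Cd79a was at 0 to 2.90 and 0 to 6.10, and Blk and Fcer2a did not exceed 6.10 in any library. In the same order of groups, Ms4a1 was at 45.04 to 79.91 and 19.63 to 99.44, and Cd79b at 15.34 to 64.57 and 2.246 to 35.06. Pax5 was at 0 to 9.684 and 1.042 to 41.46, and Jchain at 0 to 37.02 and 2.735 to 52.85. For cytotoxic lymphocyte markers (6 of 9 analysed) the sums were 110 to 196 and 48.5 to 132, with Nkg7 at 49.2 to 92.3 against 2.03 to 18.4 and Gzmk at 0 in all TNFR2+ libraries, and the part of these transcripts in the results below was not tested. Myeloid (6 of 11 analysed), erythroid (1 of 9) and platelet (1 of 5) marker sums overlapped between groups. Among the myeloid markers, Csf1r and Mpo were at 0 in all TNFR2+ libraries and S100a9 at 0 in all TNFR2- libraries. Itgam was lower in TNFR2+ libraries without overlap (2.917 to 8.801 against 10.64 to 21.2), whereas Cd68 and Fcgr3 overlapped. TNFR2- replicate 3 stood apart on the second principal component (91.3, others -39.1 to 18.0), and the enzymes' values without it are given below. In bulk libraries, fewer cells using a gene and less RNA per cell cannot be told apart.

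Promoter sequences of both ribonucleotide reductase subunits are shown because each was higher in TNFR2+ libraries, with that of Tyms as an enzyme that did not pass the test. They were read from RefSeq on GRCm38.p6, 5′ to 3′ in the direction of transcription, and end at the base before the first annotated start. Rrm1 lies at chr7:102441445-102441694 (plus strand), Rrm2 at chr12:24708004-24708240 (plus strand) and Tyms at chr5:30073626-30073875 (minus strand). Capitals mark CCAAT in Rrm1 and Rrm2 and CACGTG, the E-box, in Tyms.
Rrm1: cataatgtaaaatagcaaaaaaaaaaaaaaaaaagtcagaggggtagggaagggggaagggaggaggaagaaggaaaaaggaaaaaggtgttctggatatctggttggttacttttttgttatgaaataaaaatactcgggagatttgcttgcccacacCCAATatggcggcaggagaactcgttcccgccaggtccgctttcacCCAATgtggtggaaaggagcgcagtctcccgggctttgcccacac
Rrm2: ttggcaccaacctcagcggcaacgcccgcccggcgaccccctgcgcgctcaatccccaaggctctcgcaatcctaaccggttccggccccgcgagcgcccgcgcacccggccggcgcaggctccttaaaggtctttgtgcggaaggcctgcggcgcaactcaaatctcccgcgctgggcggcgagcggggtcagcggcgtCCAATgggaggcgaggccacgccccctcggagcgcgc
Tyms: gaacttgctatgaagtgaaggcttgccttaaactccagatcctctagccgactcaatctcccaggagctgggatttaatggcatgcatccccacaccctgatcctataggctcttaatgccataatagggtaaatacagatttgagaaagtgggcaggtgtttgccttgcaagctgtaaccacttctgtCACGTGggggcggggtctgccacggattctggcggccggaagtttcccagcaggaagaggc
Motifs were searched on both strands in windows from 250 bases before to 50 after the RefSeq start, for all 9 members and 32851 promoters. The window of Dut (chr2:125247265-125247564) lay wholly inside the annotated gene, so no base before its first annotated start was searched. For Tk1 and Impdh2, part of the bases before the start also lay inside the annotated gene. The counts below therefore do not describe the sequence before the first annotated start of Dut. The CACGTG and CCAAT matches counted for Impdh2 lay inside its annotated gene, not before its first annotated start. CCAAT, a box found in many promoters, was present in 4 of 9 members (Rrm1, Rrm2, Impdh2, Paics) and in 37.4% of all promoters. CACGTG was present in 3 of 9 (Tyms, Impdh2, Paics) and in 7.15% of all promoters. The E2F-type letters TTTGGCGC, TTTCCCGC, TTTGCCGC and TTTCGCGC were in 0 of 9 members and in 2.26% of all promoters. CCAAT is thus in both printed subunit promoters, with 2 copies in Rrm1 and 1 in Rrm2, and also in members that did not pass the test. These are matches of letters and say nothing of binding.

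**Figure D1:**
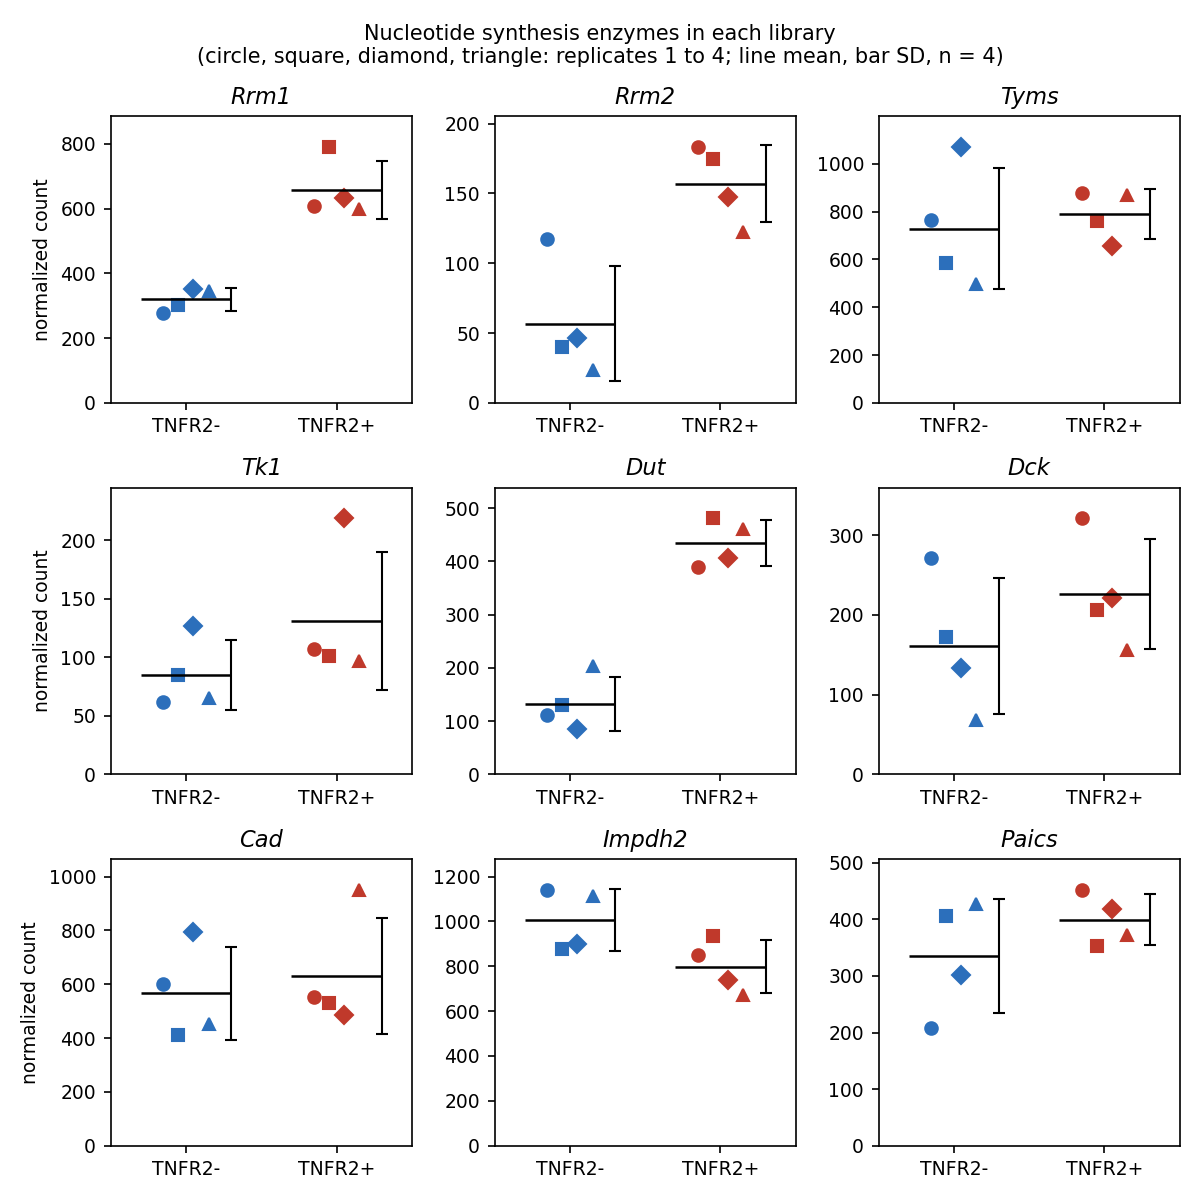
Normalized counts (vertical axes, from 0) of the 9 enzymes in each TNFR2- (blue) and TNFR2+ (red) library, with marker shapes for replicates 1 to 4, the mean as a line and the SD as a bar (n = 4). The groups are apart for Rrm1, Rrm2 and Dut and overlap for the other 6, and for Rrm2 the highest TNFR2- library, at 117 normalized counts, lies just under the lowest TNFR2+ library, at 123.

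Rrm1 (ENSMUSG00000030978; GRCm38 chr7:102441695-102469771, plus strand) encodes the large subunit, which holds the catalytic and allosteric sites. Its normalized counts were 608, 791, 632 and 598 in TNFR2+ replicates 1 to 4 and 279, 303, 351 and 346 in TNFR2- replicates 1 to 4. The lowest TNFR2+ library was well above the highest TNFR2- library. The means were 657 ± 90.1 and 320 ± 34.4 (SD, n = 4), a log2 fold change of 1.03 (SE 0.17, 95% interval 0.67 to 1.40, limma adjusted p = 0.0025). The exact two-sided permutation test gave 0.0286, the smallest p that 4 against 4 libraries allow. Without TNFR2- replicate 3 the log2 fold change was 1.08 (limma adjusted p = 0.00281).

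Rrm2 (ENSMUSG00000020649; chr12:24708241-24714146, plus strand) encodes the small subunit, which carries the tyrosyl radical and is degraded outside S phase. Its normalized counts were 183, 175, 148 and 123 in TNFR2+ and 117, 40.0, 46.6 and 23.4 in TNFR2- replicates 1 to 4. The TNFR2+ libraries lay close together, while TNFR2- replicate 1 was far above the other 3 of its group and just under the lowest TNFR2+ library. The means were 157 ± 27.6 and 56.8 ± 41.5 (SD, n = 4), a log2 fold change of 1.68 (SE 0.43, 95% interval 0.75 to 2.62, limma adjusted p = 0.0307, exact permutation p = 0.0286). Among TNFR2- libraries the coefficient of variation was 73.0%, against a mean counting error of 15.6%, with 22 estimated reads in TNFR2- replicate 4. This call was the least stable of the 3. It was kept without TNFR2- replicate 3 (1.67, limma adjusted p = 0.0443) but lost without TNFR2+ replicate 1 (0.0859), 2 (0.0893) or 3 (0.0720), without TNFR2- replicate 2 (0.0788) or 4 (0.0675), and without an intensity trend in the variances (0.0856).

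Dut (ENSMUSG00000027203; chr2:125247190-125258608, plus strand), the dUTPase, had the largest fold change of the 9. Its normalized counts were 389, 481, 406 and 460.3 in TNFR2+ and 111, 129.8, 85.6 and 204 in TNFR2- replicates 1 to 4. Every TNFR2+ library was above TNFR2- replicate 4, the highest of its group. The means were 434 ± 43.4 and 133 ± 50.9 (SD, n = 4), a log2 fold change of 1.77 (SE 0.26, 95% interval 1.21 to 2.34, limma adjusted p = 0.00123, exact permutation p = 0.0286). Without TNFR2- replicate 3 it was 1.59 (limma adjusted p = 0.00173). Rrm1 and Dut stayed past the threshold in each of the 8 fits that left out a library and under each of 11 other settings.

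Tyms (ENSMUSG00000025747; chr5:30058202-30073617, minus strand), thymidylate synthase, takes the product of Dut but was not shown to differ with it. In normalized counts it was at 879.6, 762, 655 and 868 in TNFR2+ and 763, 583, 1070.1 and 496 in TNFR2- replicates 1 to 4. The groups overlapped, and both the highest and the lowest value were in TNFR2- libraries. The means were 791 ± 105 and 728 ± 254 (SD, n = 4), a log2 fold change of 0.17 (SE 0.22, 95% interval -0.30 to 0.65, limma adjusted p = 0.694, exact permutation p = 0.543). Without TNFR2- replicate 3, the highest library, it was 0.38 and still not past the threshold, and without TNFR2- replicate 4 it was 0.01.

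The salvage kinases did not pass the test and varied widely within groups. Tk1 (ENSMUSG00000025574; chr11:117815526-117826092, minus strand), the cytosolic thymidine kinase, had normalized counts of 107, 101, 219 and 96.9 in TNFR2+ and 62.1, 84.5, 127 and 65.1 in TNFR2- replicates 1 to 4. Replicate 3 was the highest of each group, and TNFR2- replicate 3 was above 3 TNFR2+ libraries. The log2 fold change of Tk1 was 0.59 (SE 0.36, 95% interval -0.17 to 1.36, limma adjusted p = 0.351, exact permutation p = 0.171), with means of 131 ± 58.6 and 84.7 ± 29.9 (SD, n = 4). It was 0.32 without TNFR2+ replicate 3 and 0.81 without TNFR2- replicate 3. Dck (ENSMUSG00000029366; chr5:88764996-88783281, plus strand), the deoxycytidine kinase, had 321, 206, 222 and 156 in TNFR2+ and 272, 172, 133 and 68.4 in TNFR2- replicates 1 to 4. Replicate 1 was the highest and replicate 4 the lowest of both groups, which overlapped. The log2 fold change of Dck was 0.60 (SE 0.38, 95% interval -0.21 to 1.41, limma adjusted p = 0.374, exact permutation p = 0.286), with means of 226 ± 69.3 and 161 ± 85.1 (SD, n = 4). It was 0.25 without TNFR2- replicate 4, 0.90 without TNFR2- replicate 1 and 0.56 without TNFR2- replicate 3, and neither kinase passed in any of these fits. Both intervals reach past a doubling of the level as well as below 0, so a difference of either sign was not settled at this spread.

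Cad and Paics, of pyrimidine and purine synthesis, did not pass the test either. Cad (ENSMUSG00000013629; chr5:31054780-31078479, plus strand) had normalized counts of 552, 531, 486 and 951 in TNFR2+ and 603, 413, 794 and 453 in TNFR2- replicates 1 to 4. Its TNFR2+ mean rested on replicate 4, the highest of all libraries. The log2 fold change of Cad was 0.15 (SE 0.25, 95% interval -0.39 to 0.69, limma adjusted p = 0.774, exact permutation p = 0.629), with means of 630.1 ± 216 and 566 ± 173 (SD, n = 4), and it was -0.07 without that library and 0.33 without TNFR2- replicate 3. Paics (ENSMUSG00000029247; chr5:76951307-76967509, plus strand) had 452, 353, 419 and 372 in TNFR2+ and 208, 406, 302 and 427 in TNFR2- replicates 1 to 4. The TNFR2+ libraries were close together and lay inside or just above the wider TNFR2- range. The log2 fold change of Paics was 0.30 (SE 0.23, 95% interval -0.21 to 0.80, limma adjusted p = 0.496, exact permutation p = 0.314), with means of 399 ± 45.1 and 336 ± 101 (SD, n = 4). It was 0.09 without TNFR2- replicate 1 and 0.26 without TNFR2- replicate 3.

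Impdh2 (ENSMUSG00000062867; chr9:108560286-108565584, plus strand), the inducible IMP dehydrogenase and a target of the immunosuppressant mycophenolate, was the member with a negative value. The normalized counts of Impdh2 were 849, 936, 738 and 671 in TNFR2+ and 1141, 875, 899.7 and 1112.5 in TNFR2- replicates 1 to 4. Only TNFR2+ replicate 2 lay inside the TNFR2- range. The means were 798 ± 117 and 1007 ± 139 (SD, n = 4), a log2 fold change of -0.34 (SE 0.16, 95% interval -0.68 to 0.00, limma adjusted p = 0.225, unadjusted p = 0.0526, exact permutation p = 0.114). Without TNFR2- replicate 3 it was -0.39 (limma adjusted p = 0.183). The exons of Impdh2, Tk1 and Paics overlap genes on the opposite strand (Ndufaf3, Afmid and Ppat), and the strand setting of the counting is not given in the sources used here, so reads of such partners may be shared. Near-identical annotated copies exist for Impdh2, Rrm2 and Tyms, and none of these copies has a row of its own here. The counts of these enzymes are uncertain to the extent that reads were split.

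**Figure D2:**
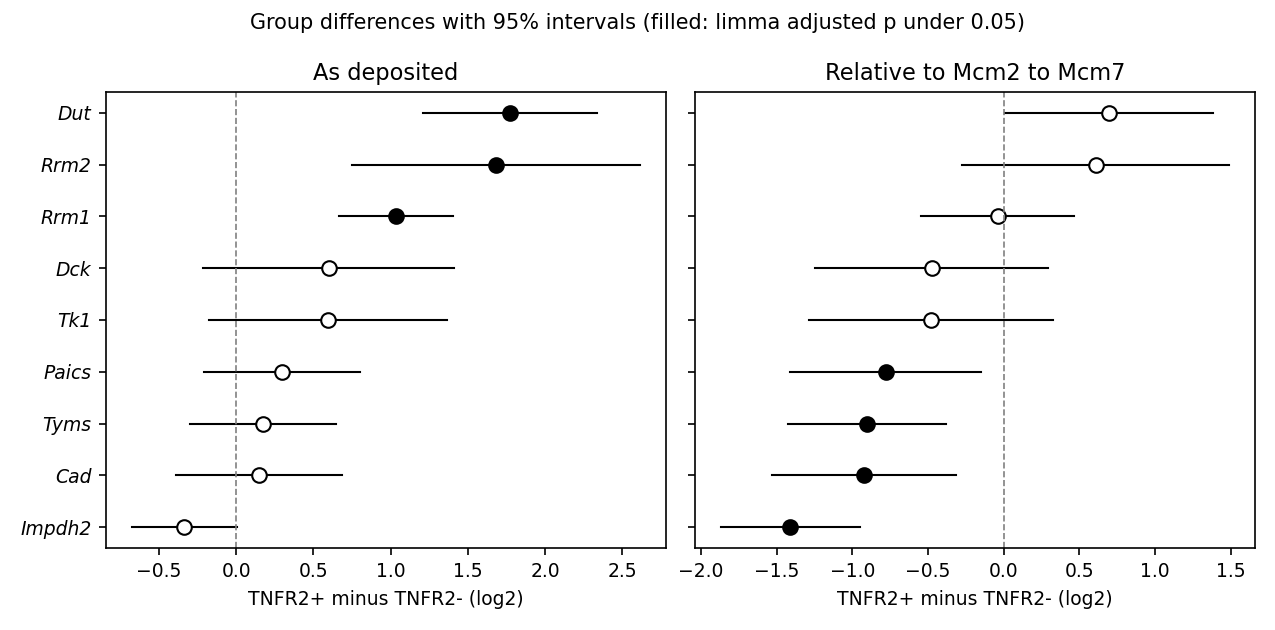
Log2 differences between TNFR2+ and TNFR2- libraries (horizontal axes) with 95% intervals for the 9 enzymes, as deposited (left) and after subtracting the mean log2 value of Mcm2 to Mcm7 in each library (right); filled points passed limma's adjusted threshold. Rrm1, Rrm2 and Dut lie at 1.03 to 1.77 on the left, and on the right Rrm1 lies at -0.04 and Impdh2 lowest at -1.41.

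The next comparison asked how the enzymes moved beside genes of replication licensing. Mcm2 to Mcm7 form the helicase loaded onto origins before S phase, and 4 of 6 were higher in TNFR2+ libraries: Mcm2 (log2 fold change 1.17), Mcm3 (1.44), Mcm5 (1.55) and Mcm6 (1.51). Mcm4 had 0.22 and Mcm7 0.56 and neither passed, while Mki67, a marker of cycling cells, was at 3834 ± 1014 against 577 ± 289 normalized counts (2.84, limma adjusted p = 3.52e-04) and Pcna, the replication clamp, at -0.17 did not pass (limma adjusted p = 0.573). The mean log2 value of the 6 Mcm genes was 1.08 higher in TNFR2+ libraries, and subtracting it in each library shifts every gene by that amount. On this relative scale, 1.24% of all genes tested were higher and 61.1% lower. No enzyme was higher (0 of 9 by limma), and 4 of 9 were lower, a share under that of all genes.

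Relative to Mcm2 to Mcm7, the difference of Rrm1 was -0.04 (95% interval -0.55 to 0.46, limma adjusted p = 0.887), so its rise was not told from theirs. Rrm2 was at 0.61 (-0.28 to 1.49, limma adjusted p = 0.212) and Dut at 0.70 (0.01 to 1.38, limma adjusted p = 0.0708). Leaving out TNFR2- replicate 1 put Rrm2 past the threshold (1.00, limma adjusted p = 0.0455), and leaving out TNFR2- replicate 4 did so for Dut (0.95, limma adjusted p = 0.0209). In the other direction, Rrm2 was at 0.30 (limma adjusted p = 0.537) without TNFR2- replicate 4, and Dut at 0.44 (limma adjusted p = 0.222) without TNFR2- replicate 3. Tk1 and Dck were both at -0.48 and did not pass (limma adjusted p = 0.279 and 0.259). The members that passed were Tyms (-0.90, limma adjusted p = 0.00458), Cad (-0.93, 0.0103), Impdh2 (-1.41, 5.89e-05) and Paics (-0.78, 0.0315). Mcm4, itself 1 of the reference genes, lay at -0.86 on this scale, near Tyms and Cad. Without TNFR2- replicate 3 the same 4 enzymes passed, at -0.77, -0.82, -1.54 and -0.89. Paics lost its call without TNFR2+ replicate 2 (limma adjusted p = 0.105), TNFR2- replicate 2 (0.116) or TNFR2- replicate 4 (0.107), and without an intensity trend (0.0753).

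Isozymes of the same reaction were compared within each library, as the log2 level of the enzyme minus that of its partner. Rrm2b, the small subunit that p53 induces and that serves cells outside S phase, did not pass by itself (log2 fold change -0.23, limma adjusted p = 0.714). Rrm2 minus Rrm2b was -0.51, -0.13, -0.26 and 0.05 in TNFR2+ and -0.21, -2.23, -2.80 and -3.26 in TNFR2- replicates 1 to 4. TNFR2- replicate 1 thus lay among the TNFR2+ libraries, while in the other 3 TNFR2- libraries Rrm2 was far lower relative to Rrm2b. Lengths were not taken into account, so the values compare libraries and not the levels of both genes. The group difference was 1.91 (exact permutation p = 0.0857, and 0.314 adjusted over 4 pairs, n = 4), so it did not pass. It ranged from 1.53 to 2.55 when each library was left out.

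The other pairs set a cytosolic or inducible enzyme against its mitochondrial or constitutive partner. The group difference was 0.44 for Tk1 against Tk2, the mitochondrial thymidine kinase (exact permutation p = 0.286). It was 0.71 for Dck against Dguok, the mitochondrial deoxyguanosine kinase (exact permutation p = 0.2). It was 0.24 for Impdh2 against Impdh1 (exact permutation p = 0.314). Each of these was 0.314 after adjustment over the 4 pairs. None of the partners passed by limma, with log2 fold changes of 0.16 for Tk2 (adjusted p = 0.689), -0.11 for Dguok (0.874) and -0.58 for Impdh1 (0.128).

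**Figure D3:**
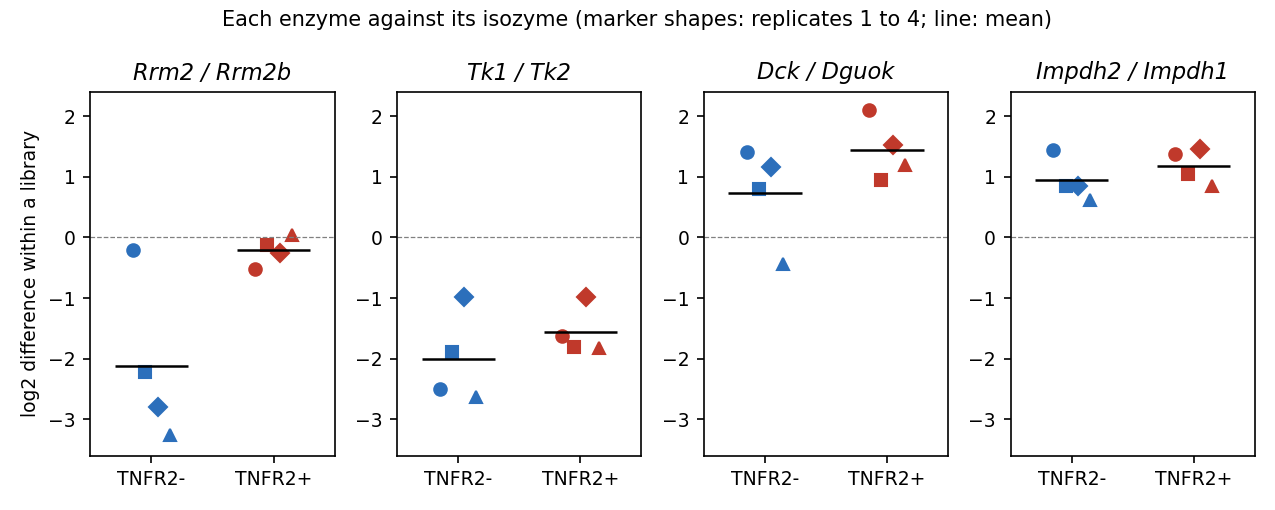
Log2 level of each enzyme minus that of its isozyme within a library (vertical axes), for TNFR2- (blue) and TNFR2+ (red) libraries, with marker shapes for replicates 1 to 4 and the mean as a line. For Rrm2 against Rrm2b the TNFR2+ libraries lie at -0.51 to 0.05, and 3 of 4 TNFR2- libraries at -2.23 or lower.

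Other genes of nucleotide metabolism were taken from 5 lists of 72 genes, of which 68 were analysed and 61 tested. Nme1 was higher and Samhd1 lower, both from the list of deoxynucleotide supply, and the other 59 did not pass. A count of 1 of 61 in each direction is under the 4.52% higher and 3.39% lower of all genes tested. The median log2 fold change over the 61 genes was 0.137, with 39 positive and 22 negative values, against -0.01 over all genes tested. An unadjusted p under 0.05 was reached by 6 in the higher and 3 in the lower direction, against 1716 and 1495 of 13990 over all genes.

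Samhd1 encodes a hydrolase that breaks down deoxynucleotide triphosphates, the reverse of supply. In normalized counts it was at 3173, 3783, 4031 and 3713 in TNFR2+ and 6039, 6571, 5108 and 7316 in TNFR2- replicates 1 to 4. All TNFR2+ libraries were below all TNFR2- libraries. The means were 3675 ± 361 and 6258 ± 929 (SD, n = 4), a log2 fold change of -0.76 (SE 0.13, limma adjusted p = 0.00263). It stayed past the threshold in each of the 8 fits that left out a library (-0.85 without TNFR2- replicate 3) but not without an intensity trend (limma adjusted p = 0.0559). Nme1 encodes a nucleoside diphosphate kinase, which adds the last phosphate. Its normalized counts were 219.9, 342, 305 and 321 in TNFR2+ and 86.8, 143, 187 and 188 in TNFR2- replicates 1 to 4. The lowest TNFR2+ library was above the highest TNFR2- library. The means were 297 ± 53.6 and 151 ± 47.8 (SD, n = 4), a log2 fold change of 1.01 (SE 0.28, limma adjusted p = 0.0419), and the call held in 3 of 8 fits that left out a library (1.14 without TNFR2- replicate 3), with an adjusted p of up to 0.125 without TNFR2+ replicate 2. Nme2, a related kinase gene on the same list, had means of 345 ± 70.7 and 407 ± 102 (SD, n = 4). Its log2 fold change of -0.23 did not pass (limma adjusted p = 0.615). Whether reads were shared between Nme1 and Nme2 was not checked.

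By list, deoxynucleotide supply had 1 higher, 1 lower and 18 that did not pass among 20 tested, with a median log2 fold change of 0.318. By an unadjusted limma p under 0.05, 4 of these 20 were higher and 1 lower, against 1716 and 1495 of 13990 over all genes. By limma, pyrimidine synthesis and salvage had 0 past the threshold in either direction among 9 tested (median 0.353), with 0 also at an unadjusted p under 0.05. Purine de novo synthesis had 0 by limma among 13 (median 0.128), although 1 was higher and 1 lower by an unadjusted p under 0.05. The first enzyme of that route, Ppat, was at 0.41 (limma adjusted p = 0.325), and Gart, which acts at several of its steps, at 0.48 (0.232). Both lay toward the upper end of the 13 genes, which ran from -0.58 to 0.48, with 8 positive and 5 negative values. Purine salvage and breakdown had 0 by limma among 14 (median 0.069; 1 higher and 1 lower unadjusted), and nucleoside transporters 0 by limma among 5 (median -0.066; 0 unadjusted). Shmt1, which supplies folate carbon to thymidylate, was at 1.54 and did not pass (limma adjusted p = 0.0784).

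**Figure D4:**
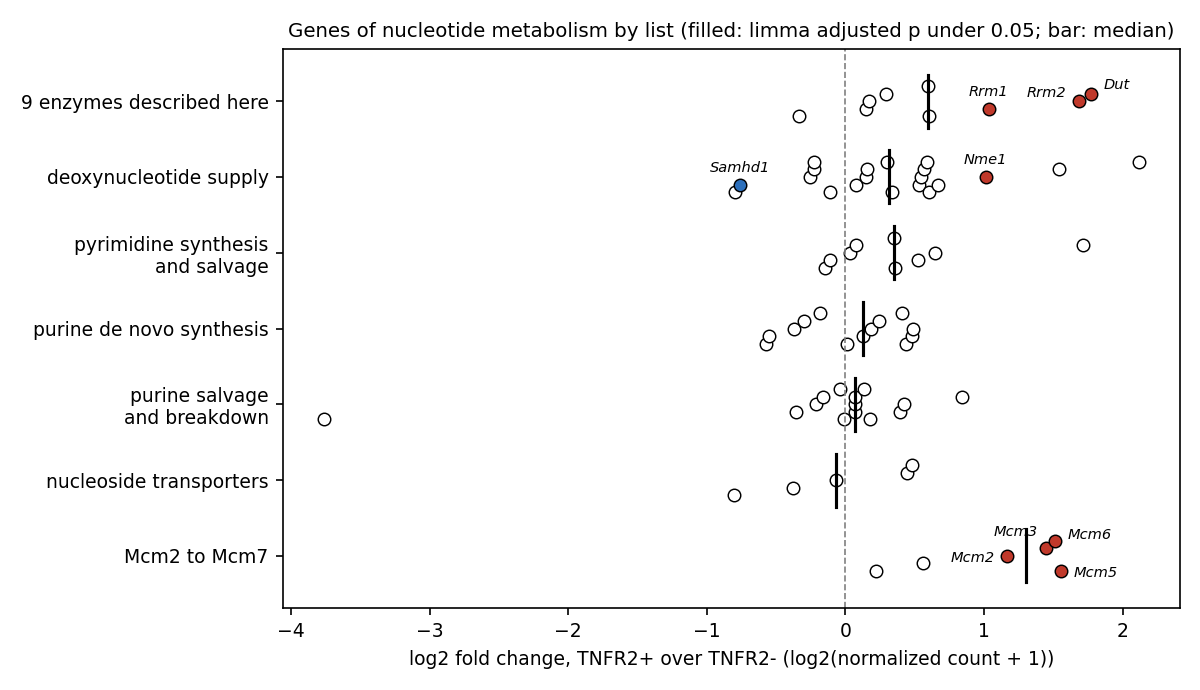
Log2 fold changes (horizontal axis, TNFR2+ over TNFR2-) of the 9 enzymes, of 5 lists of related genes and of Mcm2 to Mcm7, with filled points for genes past limma's adjusted threshold and a bar for each median. Named points passed, 3 of 9 among the enzymes, 2 of 61 among the related genes (Nme1 and Samhd1) and 4 of 6 among the Mcm genes.

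Levels were compared between enzymes as normalized counts per kilobase of the longest coding transcript. In TNFR2+ libraries Impdh2 was the highest at 429.7 ± 63.2 per kilobase (SD, n = 4), followed by Tyms at 250.2 ± 33.1, Dut at 223 ± 22.3, Rrm1 at 164 ± 22.5 and Paics at 161 ± 18.2. Tk1 (90.9 ± 40.7), Cad (88.3 ± 30.2), Dck (73.4 ± 22.5) and Rrm2 (71.6 ± 12.6) were the lowest. Neighbours from Tyms to Dut, from Rrm1 to Paics and from Tk1 to Rrm2 lay within their spread. In TNFR2- libraries Impdh2 (542 ± 74.8) and Tyms (230.2 ± 80.2) again led and Rrm2 (25.9 ± 18.9) was again last. Dut went from rank 3 in TNFR2+ to rank 6 in TNFR2- libraries (68.0 ± 26.1), while Rrm1 kept rank 4 (80.0 ± 8.61) under Paics (135 ± 40.7). Per kilobase, the ratio of Rrm1 to Rrm2 was 1.82, 2.48, 2.35 and 2.68 in TNFR2+ and 1.31, 4.16, 4.13 and 8.12 in TNFR2- replicates 1 to 4. The large subunit transcript was thus in excess in every library, by the widest range among TNFR2- libraries.

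Likeness to Rrm2 and Impdh2 was described as the Pearson correlation of deviations from the group means, over 8 libraries, among 10244 genes whose mean was 50 or more. The genes most like Rrm2 were Inpp5e (0.971), Adamts6 (0.963), Cnot6 (0.959), A430027C01Rik (0.959) and Coro2b (0.957). Among those most like Impdh2 were Hnrnpk (0.974), Mrgbp (0.957), Jag2 (0.953) and Selenos (0.946). With 8 libraries and this many genes, high values are found for any gene, and the points share the library scaling.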

How the data were processed

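RNA of sorted splenic Tregs was made into stranded total RNA libraries and sequenced by the authors. Per the submitters' processing notes, FastQC 0.11.8, Trim Galore, Salmon 1.3.0 on GRCm38, R 4.0 and DESeq2 1.28 were used. The deposited signal values are salmon gene counts divided by DESeq2 size factors, not whole counts, so no count model was run. Values of up to 12 in 2783 genes with a single transcript over 1500 bases lay within 0.1 of whole reads in 69.1% to 96.0% of cases, against 20% by chance, which gave the estimated depths. Salmon shares reads among similar transcripts, which affects genes with copies.

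Symbols were matched for 20008 of 20172 identifiers. Genes with a mean of at least 10 were fitted as log2(value + 1) with limma 3.58.1 in R 4.3.3, two-sided, with an intensity trend and no block. The fit was tried on simulated data with a single spread beyond counting error for all genes. That spread was not set to that of these libraries, so it does not show how the fit performs for the enzymes here. Exact permutation tests were two-sided over all relabellings. Alternatives covered pseudocount, filter, moderation, scaling, array weights, replicate number and each library left out. Copies were annotated transcripts of at least 95% identity over at least 50% of the length (blastn 2.17.0). Named were all 9 enzymes, 4 isozymes, related genes past the threshold, the Mcm genes, Tnfrsf1b, Foxp3, Mki67, Pcna and the 5 genes most like Rrm2 and Impdh2, some of which are not reported here. Ppat, Gart, Shmt1, Nme2, Ampd1, Ampd2, Ampd3 and Adss were named after their values were seen. Members and lists were chosen with earlier results of these data known.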

Additional observations from a re-analysis of the deposited data

Results flagged for a closer look

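Of 30 groups of 4 libraries checked for a value far from the other 3, 2 were marked, where chance marks about 1 in 20. Tk1 in TNFR2+ replicate 3 had 218.6 normalized counts, against 96.87 to 107.1 in the other TNFR2+ libraries, a gap of 0.916 of the range. Cad in TNFR2+ replicate 4 had 951.1 normalized counts, against 486.1 to 552.1 in the other TNFR2+ libraries, a gap of 0.858 of the range.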

How the results depend on the processing

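Rrm1 and Dut kept their direction and their call in all 19 alternatives. Rrm2 kept its direction in all 19 and its call in 10 of 11 settings with all libraries and 3 of 8 that left out a library, so the count of higher enzymes was 2 to 3. The number of related genes higher was 0 without an intensity trend or with median centring, and 2 with equal library sums (Nme1 and Adss). With quantile normalization it was 1, with Adss in place of Nme1. The number lower was 0 without an intensity trend and 2 with no minimum, with array weights or with the replicate block, where Ampd1 was the second. Leaving out each library gave 0 to 2 higher and 1 to 2 lower related genes, and 0 to 1 enzymes higher relative to Mcm2 to Mcm7. Dguok changed sign with equal library sums (0.0157), Cad without TNFR2+ replicate 4 (-0.0666, and up to 0.3281 without TNFR2- replicate 3) and Rrm1 relative to Mcm2 to Mcm7 in 3 of 8 fits that left out a library (range -0.1323 to 0.0283), none of them called. The causes of these changes were not tested.

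Over all genes, 633 were higher and 474 lower (57.2% of calls higher). Equal library sums gave 904 and 309 (74.5%) and moved the median gene to 0.12, median centring gave 540 and 657 (45.1%), and without an intensity trend there were 283 and 182. Libraries with the same replicate number did not deviate together (correlations -0.039 to 0.001), so the numbers were not taken as pairs. The replicate block gave 675 higher and 508 lower genes and left 3 enzymes higher and 0 lower by limma. Rrm2, with 22 estimated reads in 1 library, is the member that depth limits most.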

Other observations

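Among the 36 pairs of enzymes, the correlation of deviations from the group means over 8 libraries ranged from -0.841 (Rrm2 with Paics) to 0.893 (Rrm2 with Dck), with a median of -0.057, and 16 were positive. Dck and Rrm2 were both highest in replicate 1 and lowest in replicate 4 of each group. Tyms and Cad had 0.78, and Tyms and Dut -0.835. The 2 ribonucleotide reductase subunits, Rrm1 and Rrm2, had -0.386.

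The AMP deaminase genes lay on both sides of 0 without passing the test. Ampd3 was at -0.35 (limma adjusted p = 0.733). Ampd1, known from muscle, was at 1.16, 0, 0 and 7.31 normalized counts in TNFR2+ and 57.2, 14.8, 6.15 and 91.4 in TNFR2- replicates 1 to 4 (log2 fold change -3.76, limma adjusted p = 0.0574), and the groups overlapped. Ampd2 was at 370.0, 238, 410.0 and 268 in TNFR2+ and 123, 138, 239 and 228 in TNFR2- replicates 1 to 4 (0.84, limma adjusted p = 0.0850), with an overlap in replicate 2 of the TNFR2+ group.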
